A study of Homo sapiens with 12 samples.

Results

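The genes described here are targets of the hypoxia inducible factors (HIF) and enzymes of glycolysis, 37 genes taken by symbol, of which 36 were measured among 25270 genes on the arrays. A probe was assigned to a gene through the RefSeq accession in the scanner output, and the brightest probe stood for the gene. No probe was matched to ALDOA. The 36 genes were 2 HIF subunits, 19 other HIF pathway genes (oxygen sensors, secreted factors, mitophagy receptors, collagen enzymes, transporters and other targets) and 15 glycolytic enzymes and regulators. All 36 were well above background on all 12 arrays.

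RNA came from Daoy cells, an established human medulloblastoma (MB) line, kept in astrocyte conditioned medium (ACM) or in full DMEM. RNA was taken after 1 passage of 48 h, here P1, or after 3 of them, here P3. ACM was medium taken from cultured hippocampal astrocytes of newborn Sprague Dawley rats, and the control cells received DMEM with serum. Each of the 4 groups had 3 arrays, numbered 1 to 3. The labels speak of independent experiments, and nowhere state that a number marks one of them.

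HIF is a dimer of an oxygen-labile alpha subunit (HIF1A, or EPAS1, which encodes HIF-2 alpha) and a stable beta subunit. In oxygenated cells prolyl hydroxylases of the EGLN family mark the alpha subunit for destruction through VHL, so HIF activity is set largely at the protein level, which arrays do not measure. When oxygen falls, HIF binds the letters ACGTG or GCGTG in target genes and raises glucose transport, glycolysis, angiogenic factors and acid export. Many tumour lines run glycolysis in normal oxygen as well.

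The 12 arrays lay on 3 slides. All of P1 ACM lay on slide 1 together with replicate 1 of P3 ACM, whose replicates 2 and 3 shared slide 2 with replicates 1 and 2 of P1 DMEM. All of P3 DMEM lay on slide 3 together with replicate 3 of P1 DMEM. No slide thus carried both media of a passage, so that within a passage medium and slide cannot be told apart. Slide 2 had the lowest share of probes well above background, 74.2% to 80.2%, while slide 1 had 90.9% to 94.6% and slide 3 had 88.1% to 91.0%. The labels also conflict. A table of log2 values deposited by the authors holds the same arrays, yet the probe order in 0 of its 12 columns was that of the scanner file of the same sample, and in each it was that of another sample (Spearman correlation at least 0.99997). Values below follow the scanner files, and the value under the table's labels is given beside the main results. Of 10 medulloblastoma and neural markers 9 passed the filter on dim probes, ATOH1 being the exception, and VIM was at 6.36 to 7.45 on the log2 scale used below. Of 8 astrocyte markers 6 passed, without GFAP and AGT, and 2 of them (ALDH1L1 and S100B) were more than 2-fold higher at a limma p of at most 0.05 before adjustment in ACM at P1 (13.5% of all genes) and 1 (AQP4) lower (0.0989%). By the same thresholds 2 of 7 microglia markers measured were higher (CX3CR1 and P2RY12). In P1 DMEM, S100B and P2RY12 were well above background on 0 of 3 arrays and CX3CR1 on 1 of 3. ALDH1L1 was 1.65 higher and AQP4 differed by -1.37, against -0.13 and 1.31 under the table's labels. Their part in the results was not tested.

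The promoters give the sequence context. RefSeq promoter windows (GRCh38.p14, 250 bases before to 50 after a start) were found for 33 of the 37 genes, in 59 windows, several of them overlapping. VEGFA, BNIP3L, NDRG1 and SLC2A3 had none. The letters ACGTG, read on both strands, were in 25 of the 59 windows (42.4%) against 21.4% of all 35116 windows. ACGTG or GCGTG was in 72.9% against 48.4%. By class, ACGTG was in 41.9% of 31 windows of glycolytic genes and 48.0% of 25 windows of the other HIF targets. The glycolytic windows are of 16 genes, among them ALDOA, which was not measured and has ACGTG in each of its windows. A match is a description of letters and not a bound site. Among genes treated below, the windows of EGLN3, P4HA2 and PGAM1 held neither ACGTG nor GCGTG. Windows of EPAS1, ENO1, KDM3A, PFKFB4, SLC2A1, ADM, PKM, PFKL, HIF1A and HK1 held GCGTG only, for HIF1A and HK1 not in every window. The stretches below, all before the start site, were picked from members that hold ACGTG. In them ACGTG or its complement CACGT is in capitals (CACGTG holds both):
LDHA, chr11:18394456-18394514, + strand: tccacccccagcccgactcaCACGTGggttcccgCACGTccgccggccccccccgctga
PGK1, chrX:78104026-78104089, + strand: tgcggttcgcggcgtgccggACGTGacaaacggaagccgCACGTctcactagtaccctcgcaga
GAPDH, chr12:6535163-6535208, + strand: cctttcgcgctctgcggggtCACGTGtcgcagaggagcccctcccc
ENO2, chr12:6914442-6914486, + strand: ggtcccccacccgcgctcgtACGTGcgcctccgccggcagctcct
SLC16A3, chr17:82228954-82229011, + strand: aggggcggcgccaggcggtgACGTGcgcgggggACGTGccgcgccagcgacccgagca
ANKRD37, chr4:185396659-185396722, + strand: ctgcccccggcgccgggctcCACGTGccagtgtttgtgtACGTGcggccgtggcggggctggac
CA9, chr9:35673890-35673927, + strand: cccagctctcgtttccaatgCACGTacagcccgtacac
The CA9 stretch ends 1 base before the start and the LDHA stretch 49 bases before it.

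The first question was whether medium moved these genes. A level is log2 of the intensity after subtraction of the log2 75th percentile of its array, so 0 is that percentile, and differences are ACM minus DMEM on the log2 scale from limma, fitted across all genes. None (0) of the 36 genes passed the thresholds of the study, a change of more than 2-fold and a p of at most 0.05 before adjustment, at P1 or at P3. Over all genes 13.6% passed at P1 (13.5% higher in ACM and 0.0989% lower), and 1.73% at P3 (0.91% higher and 0.819% lower). After Benjamini-Hochberg adjustment in limma 0 of 25270 genes were at 0.05 or less in either comparison. At an unadjusted limma p of 0.05 or less without regard to size, 2 of 36 genes were lower in ACM at P1 (5.56%, with 0.91% of all genes lower) and 0 higher (23.1% higher, 24.0% in either direction). At P3 there were 4 of 36 lower (11.1%, with 3.43% of all genes lower) and 0 higher (3.85% higher, 7.27% in either direction). The genes were bright ones, 30 of the 36 being among the brightest 8424 genes and 0 among the dimmest 8423. The brightest 8424 genes had a median difference of -0.08 at P1 and -0.09 at P3, against 0.15 and 0.00 over all genes.

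**Figure D1:**
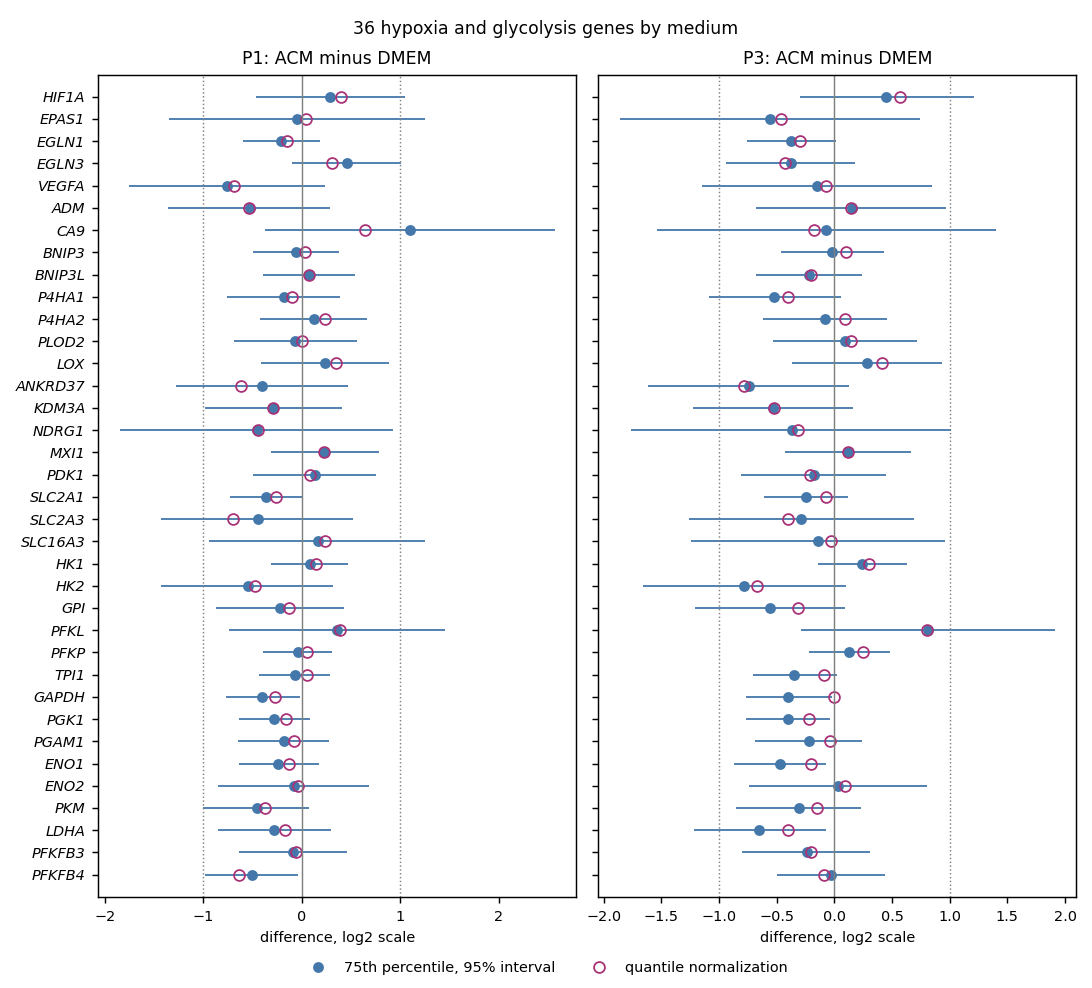
Difference of ACM minus DMEM for 36 genes at P1 (left) and P3 (right), on the log2 scale; filled points are the limma estimates after scaling to the 75th percentile with 95% intervals, open points are estimates after quantile normalization, and dotted lines mark 2-fold. Most intervals cross 0, and the glycolytic genes GAPDH, PGK1, ENO1 and LDHA lie below 0 at P3 by filled points and nearer to 0 by open points.

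No difference by medium was detected for the alpha subunits. HIF1A was 3.94, 3.59 and 3.32 in P1 ACM replicates 1 to 3 and 3.61, 3.36 and 3.01 in P1 DMEM. At P3 it was 3.98, 3.56 and 2.99 in ACM and 3.67, 2.39 and 3.11 in DMEM. The groups overlapped at both passages, with differences of 0.29 (95% interval -0.47 to 1.05) and 0.45 (-0.30 to 1.21), and a second probe of the gene gave 0.36 and 0.65. EPAS1 was 1.71, 1.72 and 3.16 in P1 ACM, 1.46, 1.96 and 3.32 in P1 DMEM, 1.66, 1.72 and 3.10 in P3 ACM and 1.97, 3.00 and 3.17 in P3 DMEM. Here replicate 3 was the highest of the 3 arrays in all 4 groups, a pattern taken up below. The differences by medium of -0.05 (-1.35 to 1.25) and -0.56 (-1.86 to 0.74) had wide intervals. Those intervals come from the model without the replicate number, so they include the variation between replicates.

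Of the oxygen sensors, EGLN1 encodes PHD2, the main hydroxylase of HIF, and EGLN3 encodes PHD3, itself a HIF target. EGLN1 differed by -0.21 at P1 and -0.38 at P3, where its arrays did not overlap (1.32 to 1.49 in ACM, 1.56 to 1.93 in DMEM) and limma gave an adjusted p = 0.702. EGLN3 was -1.32, -1.68 and -1.46 in P1 ACM and -1.65, -1.96 and -2.21 in P1 DMEM. At P3 it was -1.62, -1.58 and -1.37 in ACM and -1.34, -0.55 and -1.52 in DMEM. ACM was thus 0.46 higher at P1 and 0.38 lower at P3, and the difference between the passages, tested as an interaction in limma, was -0.84 ± 0.36 (SE; adjusted p = 0.630), the 1 member of 36 at an unadjusted p of 0.05 or less (8.24% of all genes, 8.07% lower).

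Among secreted and pH regulating targets, single arrays lay apart for VEGFA and CA9. VEGFA, the angiogenic growth factor, was 1.47, 2.09 and 1.64 in P1 ACM against 1.74, 2.17 and 3.56 in P1 DMEM, and 1.91, 2.23 and 2.37 in P3 ACM against 1.79, 2.07 and 3.10 in P3 DMEM. Replicate 3 of both DMEM groups stood above every other array. CA9, the tumour carbonic anhydrase that hydrates carbon dioxide outside the cell, was -2.31, -3.26 and -3.28 in P1 ACM against -5.20, -4.75 and -2.19 in P1 DMEM, and -2.51, -3.38 and -2.72 in P3 ACM against -3.39, -2.81 and -2.20 in P3 DMEM. P1 DMEM replicates 1 and 2 were the lowest arrays, and replicate 3 of both DMEM groups the highest, so the P1 difference of 1.10 (95% interval -0.37 to 2.57) became 2.03 without P1 DMEM replicate 3 (limma adjusted p = 0.136) and 0.53 without P1 DMEM replicate 1, and was -1.24 under the table's labels. For VEGFA the P1 difference was -0.76 (-1.76 to 0.24), and it was -1.13 without P1 DMEM replicate 1 (limma adjusted p = 0.312) and -0.22 without P1 DMEM replicate 3. ADM, the vasodilator peptide adrenomedullin, differed by -0.53 at P1 and 0.15 at P3.

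The mitophagy receptor BNIP3 was nearly level, at 3.00, 2.60 and 2.48 in P1 ACM, 2.66, 2.50 and 3.09 in P1 DMEM, 2.98, 2.78 and 2.79 in P3 ACM and 2.80, 2.74 and 3.05 in P3 DMEM. Its differences of -0.06 (-0.50 to 0.38) and -0.02 (-0.46 to 0.43) lie within 2-fold in either direction, whereas for VEGFA, CA9 and EPAS1 the intervals include 2-fold at one or both passages. BNIP3L, its paralog, differed by 0.07 and -0.22. PDK1, a kinase that inhibits pyruvate dehydrogenase, was 0.01, -0.50 and -0.79 in P1 ACM, -0.91, -0.76 and 0.01 in P1 DMEM, -0.37, -0.47 and -0.51 in P3 ACM and -0.59, -0.31 and 0.10 in P3 DMEM. Its groups overlapped at both passages (0.13 and -0.18). The collagen hydroxylases P4HA1, P4HA2 and PLOD2 and the crosslinking oxidase LOX differed by -0.18 to 0.24 at P1 and by -0.52 to 0.28 at P3. The histone demethylase KDM3A, the stress gene NDRG1, the MYC antagonist MXI1 and the small ankyrin gene ANKRD37 differed by -0.46 to 0.23 at P1 and by -0.74 to 0.12 at P3. None of these 11 genes reached an unadjusted p of 0.05.

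Among transporters, SLC2A1 (the glucose transporter GLUT1) was 3.68, 3.84 and 3.75 in P1 ACM and 4.15, 3.82 and 4.38 in P1 DMEM, a difference of -0.36 (-0.73 to 0.01; limma adjusted p = 0.226). At P3 it was 3.93, 3.83 and 3.84 in ACM and 3.97, 4.23 and 4.14 in DMEM. Those P3 arrays did not overlap, and the difference was -0.25, or -0.07 after quantile normalization. SLC2A3 (GLUT3) differed by -0.45 and -0.29 and SLC16A3 (the lactate exporter MCT4) by 0.16 and -0.14, with overlapping arrays.

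The mean of most glycolytic enzymes was lower in ACM on the scanner files' labels, by less than 2-fold, and this direction turned under other settings. At P1, 13 of 15 had a lower mean in ACM, with a median difference of -0.22, and at P3 11 of 15, with a median of -0.31. After quantile normalization 11 of 15 and 10 of 15 were lower, with medians of -0.13 and -0.09. Under the table's labels 10 of 15 were instead higher at both passages, with medians of 0.10 and 0.24. With slide as a block 12 of 15 were higher at P1 (median 0.21), and 9 of 15 lower at P3 (median -0.09). GAPDH, the dehydrogenase in the middle of the pathway, was 5.27, 5.57 and 5.61 in P1 ACM against 5.84, 5.80 and 6.0 in P1 DMEM, and 5.35, 5.60 and 5.77 in P3 ACM against 5.99, 6.10 and 5.82 in P3 DMEM. Every ACM array was below every DMEM array of its passage. The difference was -0.40 at both passages (limma adjusted p = 0.192 and 0.702). After quantile normalization it was -0.27 at P1 and 0.00 at P3, and under the table's labels 0.20 and 0.02.

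PGK1, the first ATP-forming kinase of the pathway, was 3.92, 3.63 and 3.53 in P1 ACM against 4.09, 3.77 and 4.06 in P1 DMEM, and 3.80, 3.90 and 3.97 in P3 ACM against 4.20, 4.44 and 4.24 in P3 DMEM. ENO1, the main enolase, was 4.66, 4.87 and 5.05 against 5.06, 5.03 and 5.19 at P1 and 4.59, 4.84 and 5.14 against 5.20, 5.52 and 5.25 at P3. At P3 the media did not overlap for either gene, with differences of -0.40 for PGK1 and -0.47 for ENO1 (limma adjusted p = 0.692 and 0.684). LDHA, which turns pyruvate into lactate, was 4.25, 4.21 and 4.32 against 4.46, 4.40 and 4.75 at P1 and 3.99, 4.44 and 4.87 against 4.62, 5.51 and 5.12 at P3, a difference of -0.28 without overlap at P1 and of -0.65 with overlap at P3 (limma adjusted p = 0.692). Its second probe gave -0.09 and -0.40. After quantile normalization the P3 differences were -0.22 for PGK1, -0.20 for ENO1 and -0.40 for LDHA, and under the table's labels 0.24, 0.01 and 0.46.

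HK2, the inducible hexokinase that starts the pathway, was 1.81, 1.57 and 1.53 in P1 ACM against 2.07, 1.74 and 2.76 in P1 DMEM, and 1.52, 1.98 and 2.42 in P3 ACM against 1.91, 3.53 and 2.82 in P3 DMEM. P3 DMEM replicate 2 was the highest array, the P3 difference was -0.78 (-1.66 to 0.10), and it was -1.20 without P3 DMEM replicate 1 (limma adjusted p = 0.584), -0.39 without P3 DMEM replicate 2 and 0.97 under the table's labels. PFKFB4, a bifunctional regulator of phosphofructokinase, was -1.29, -1.48 and -1.88 in P1 ACM against -0.80, -1.37 and -0.94 in P1 DMEM (-0.51; limma adjusted p = 0.181). At P3 it was -1.37, -0.95 and -1.34 in ACM and -1.32, -1.12 and -1.14 in DMEM, and the groups overlapped. PKM, the pyruvate kinase of most tissues, did not overlap at P1 (3.20 to 3.71 in ACM, 3.93 to 4.01 in DMEM; -0.46) and overlapped at P3. PFKL, the liver type phosphofructokinase, ran the other way, 0.36 and 0.81 higher in ACM with wide intervals (-0.74 to 1.46 and -0.29 to 1.91). HK1, GPI, PFKP, TPI1, PGAM1, ENO2 and PFKFB3 differed by -0.22 to 0.08 at P1 and by -0.56 to 0.24 at P3. Arrays without overlap and lower in ACM were counted for 3 of 36 genes at P1 (GAPDH, PKM, LDHA; 5.38% of all genes) and 5 of 36 at P3 (EGLN1, SLC2A1, GAPDH, PGK1, ENO1; 5.02%). No gene of the 36 was higher without overlap, against 30.6% and 4.74% of all genes. With 3 arrays against 3, an exact permutation test cannot give less than p = 0.1.

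**Figure D2:**
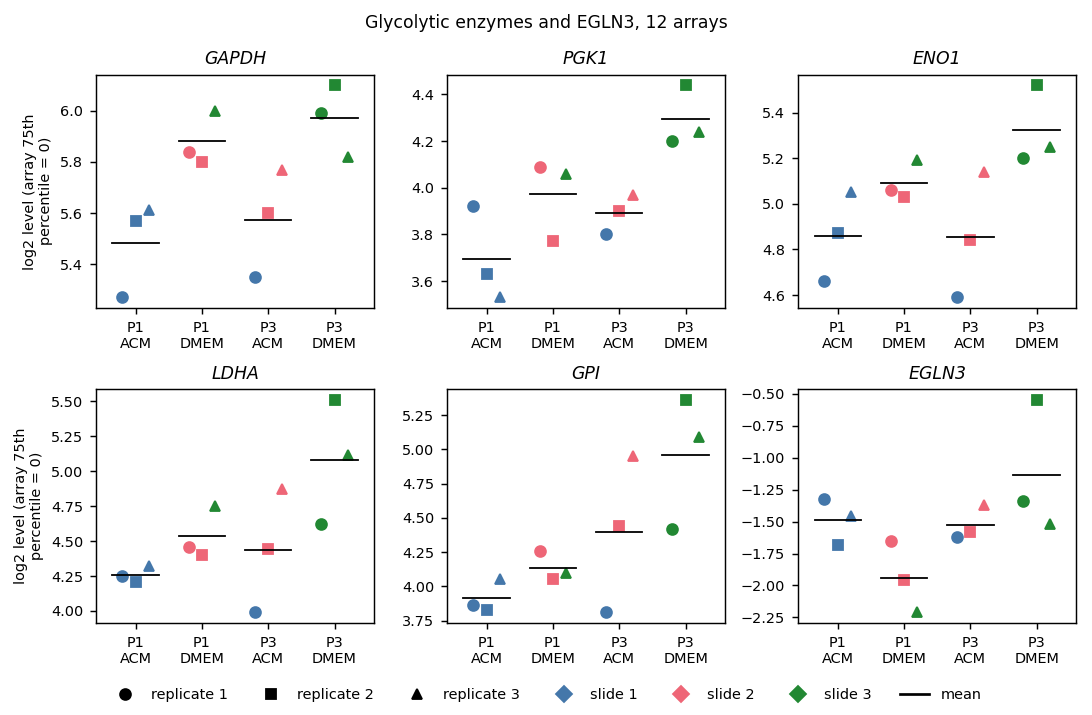
Levels of 5 glycolytic enzymes and EGLN3 on the 12 arrays (log2, 75th percentile of the array at 0); shape is the replicate number, colour the slide, and the line the group mean. GAPDH, PGK1 and ENO1 in P3 ACM lie below all 3 P3 DMEM arrays, all of which share slide 3, and GPI lies at 4.05 to 4.26 in P1 DMEM and at 4.42 to 5.36 in P3 DMEM.

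Glycolytic enzymes and the other HIF targets were then compared as classes, as a description without a test. At P1 the median difference by medium was -0.22 for 15 glycolytic genes and -0.07 for 19 other targets, a gap of -0.16. At P3 it was -0.31 and -0.18, a gap of -0.13, which turned to 0.09 after quantile normalization (medians -0.09 and -0.18). The gap of single arrays varied with an SD of 0.26 within groups. The gap was 0.44 at P1 under the table's labels, and -0.56 at P3 with slide as a block. By array, the other targets ranged from 0.37 below to 0.53 above their 12-array mean, glycolytic genes from 0.27 below to 0.43 above. The 3 highest arrays for the other targets were on slide 3 (P3 DMEM replicate 3, P1 DMEM replicate 3 and P3 DMEM replicate 2). The remaining array of slide 3, P3 DMEM replicate 1, was at -0.17.

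**Figure D3:**
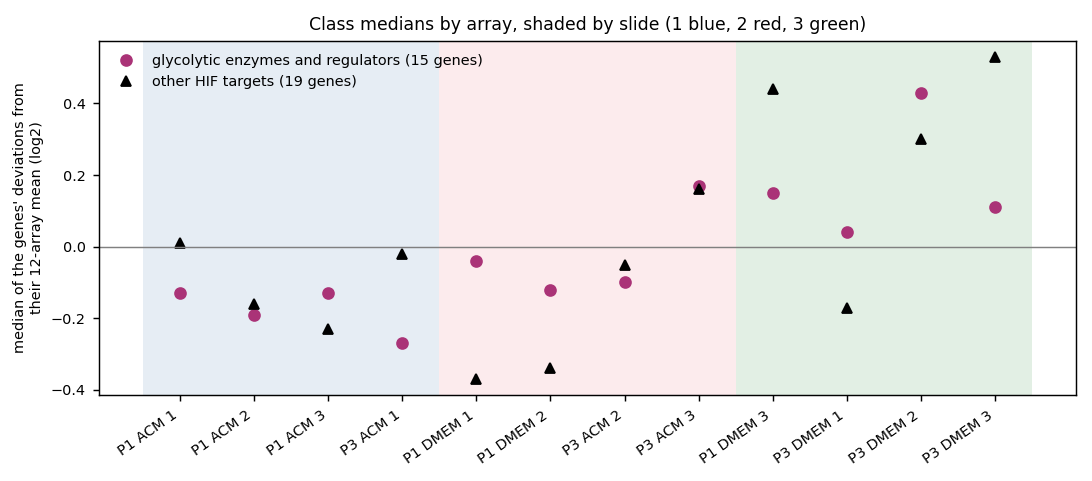
Median deviation of each class from its 12-array mean (log2) on every array, ordered and shaded by slide; circles are 15 glycolytic genes and triangles 19 other HIF targets. The other HIF targets are lowest in P1 DMEM replicates 1 and 2 on slide 2 (-0.37 and -0.34) and highest in P3 DMEM replicate 3 and P1 DMEM replicate 3 on slide 3 (0.53 and 0.44). P3 DMEM replicate 1, also on slide 3, lies at -0.17.

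The slides could be compared within a group for P1 DMEM and P3 ACM, with no test. In P1 DMEM, replicate 3 on slide 3 was above replicates 1 and 2 on slide 2 for 18 of 19 other HIF targets (median 0.71) and for 11 of 15 glycolytic genes (median 0.14). More than 2-fold apart there were 7 of 36 genes (19.4%, against 8.42% of all genes), all higher on slide 3: CA9 by 2.78, NDRG1 by 2.25, SLC16A3 by 1.83, VEGFA and EPAS1 by 1.61, SLC2A3 by 1.47 and ANKRD37 by 1.22. In P3 ACM, replicate 1 on slide 1 was below replicates 2 and 3 on slide 2 for 14 of 15 glycolytic genes (median -0.34), while 11 of 19 other targets were above (median 0.09), and 1 of 36 genes, PFKL (1.31 higher on slide 1), was more than 2-fold apart (2.78%, against 24.4% of all genes). Whether the slide or the replicate made these differences cannot be told apart. Between groups on 1 slide, again with no test, P3 ACM replicates 2 and 3 on slide 2 were above P1 DMEM replicates 1 and 2 for 17 of 19 other targets (median 0.35) and 10 of 15 glycolytic genes (median 0.05), with CA9 (1.92) and SLC16A3 (1.21) more than 2-fold apart (5.56%, against 4.52% of all genes). Those arrays differed in medium, passage and replicate numbers together, which cannot be told apart. On slide 3 the mean of P3 DMEM was above P1 DMEM replicate 3 by 1.07 for EGLN3 and below it by more than 2-fold for VEGFA (-1.25), NDRG1 (-1.23) and SLC2A3 (-1.09), which made 4 of 36 (11.1%, against 3.84%). On slide 1, P3 ACM replicate 1 was within 2-fold of the mean of P1 ACM for all 36 (1.46% of all genes were not). With slide as a block in limma, 4 of 36 genes passed the thresholds of the study at P3, all higher in ACM (1.54% of all genes): CA9 (2.53), NDRG1 (2.00), SLC16A3 (1.88) and VEGFA (1.59), each with an adjusted p of 0.976. No slide holds both media of P3, so that estimate joins differences within slide 2 and within slide 3 through P1 DMEM. It thus depends on P1 DMEM replicates 1 and 2 on slide 2 and on the single replicate 3 on slide 3. Adding the replicate number to the block left CA9 alone (2.15).

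For passage, 0 of 36 genes passed the thresholds of the study in DMEM (1.72% of all genes, 1.14% higher at P3 and 0.582% lower) or in ACM (7.51%, with 0.0356% higher and 7.48% lower). For the difference of the medium effects it was 0 of 36 too (6.86%, with 0.0514% higher and 6.81% lower). At an unadjusted limma p of 0.05 or less, 2 genes were higher at P3 in DMEM (5.15% of all genes, 8.13% in either direction) and 0 in ACM (0.178%, 13.7% in either direction). Arrays did not overlap for 5 genes higher at P3 in DMEM (EGLN3, GPI, TPI1, PGK1 and ENO1; 11.2% of all genes) and 0 lower (7.77%), and for 0 genes in ACM (2.71% higher and 4.1% lower). EGLN3, with the values above, was 0.80 higher at P3 in DMEM without overlap (95% interval 0.24 to 1.36; limma adjusted p = 0.571), and 0.17 higher under the table's labels. GPI, the isomerase after hexokinase, was 4.26, 4.05 and 4.10 in P1 DMEM and 4.42, 5.36 and 5.09 in P3 DMEM, 0.82 higher without overlap (limma adjusted p = 0.571), and -0.10 under the table's labels. These P1 DMEM arrays also enter the comparison of media at P1. In ACM it was 3.86, 3.83 and 4.05 at P1 and 3.81, 4.44 and 4.95 at P3, where replicate 1 shared slide 1 with the P1 arrays and the other two lay on slide 2. Without P1 DMEM replicate 3, SLC16A3 (1.16), ANKRD37 (1.25) and CA9 (2.18) passed the thresholds in DMEM, and without P3 DMEM replicate 1, GPI (1.08), ANKRD37 (1.17) and PFKL (-1.32) did. By class, in ACM 17 of 19 other targets and 13 of 15 glycolytic genes had a higher mean at P3, with medians of 0.16 and 0.16 against 0.08 for the brightest 8424 genes. Within slide 1, where P3 ACM replicate 1 stands against the P1 ACM arrays, 14 of 19 other targets (median 0.17) but 6 of 15 glycolytic genes (median -0.11) were higher at P3, and under the table's labels 19 of 19 and 7 of 15 (medians 0.40 and -0.01). In DMEM 14 of 19 other targets (median 0.29) and 11 of 15 glycolytic genes (median 0.21) were higher at P3. With slide as a block these were 7 of 19 (median -0.23) and 7 of 15 (median -0.01), under the table's labels 2 of 19 (median -0.19) and 6 of 15 (median -0.06), and after quantile normalization 13 of 19 (median 0.27) and 7 of 15 (median -0.04).

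Several of these genes varied with the replicate number. Replicate 3 was compared with replicates 1 and 2 within the 4 groups, a contrast chosen after the values were seen. EPAS1 was 3.10 to 3.32 in replicate 3 of the 4 groups and 1.46 to 3.00 in the other 8 arrays, of which 7 were at most 1.97 and P3 DMEM replicate 2 was at 3.00. The difference was 1.29 ± 0.19 (SE), or 2.44-fold, with a limma adjusted p of 0.0300. It was 1.44 in P1 ACM and 0.69 in P3 DMEM, the groups whose 3 arrays share a slide, and 1.61 and 1.42 in P1 DMEM and P3 ACM. SLC2A3 (GLUT3) was -1.99 to -0.93 in replicate 3 and -2.68 to -2.23 elsewhere, 0.96 ± 0.17 higher (limma adjusted p = 0.0451), and 0.56 to 1.47 higher by group. Replicate 3 was thus above all other arrays for both genes. The second SLC2A3 probe was highest in replicate 3 in 3 of 4 groups.

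EPAS1 and SLC2A3 alone among the 36 had an adjusted p of 0.05 or less in this contrast, both higher (0.803% of all genes). A joint limma test of replicate number, on the same values already seen, does not single out replicate 3 and left 1 of 36, EPAS1 (0.815% of all genes). Its adjusted p was 0.0453 for EPAS1 and 0.085 for SLC2A3, and after quantile normalization 0.0164 and 0.0229. With p of at most 0.05 before adjustment 9 of 36 were higher in replicate 3 (9.68% of all genes) and 1 lower, PFKL (-0.72; 7.18%). At an adjusted p of 0.05 or less 0 were lower (0.162%). The 9 were EPAS1, SLC2A3, NDRG1 (1.20 ± 0.33), SLC16A3 (0.88), VEGFA (0.74), ENO2 (0.63), ADM (0.62), KDM3A (0.57) and PFKFB3 (0.39). Most belong to the other HIF targets, and of the glycolytic genes ENO2, the neuronal enolase, and PFKFB3, a phosphofructokinase activator, were among them. NDRG1 was 0.79, 2.73, 2.00 and 2.30 in replicate 3 of P1 ACM, P1 DMEM, P3 ACM and P3 DMEM and 0.40 to 1.67 elsewhere, so that P1 ACM showed a difference of only 0.03. In the same group SLC16A3 (0.06) and VEGFA (-0.13) also lacked it. Replicate 3 was the highest of its group in all 4 groups for 5 of 36 genes (EPAS1, NDRG1, SLC2A3, PFKP and PFKFB3; 5.04% of all genes). Second probes had replicate 3 highest in 2 of 4 groups for PFKP and in 3 of 4 for PFKFB3. Replicate number took up 87.5% of the variation within groups for EPAS1 and 84.5% for SLC2A3, against a median of 28.0% over all genes and 36.4% over the 36. The median was 33.9% over the brightest 8424 genes, 38.3% over the glycolytic genes and 26.3% over the other HIF targets. HIF1A ran the other way: replicate 1 was the highest of its group in all 4 groups (3.61 to 3.98, with 2.39 to 3.59 in the other 8 arrays), which held for 3.71% of all genes, while its second probe had replicate 1 highest in 2 of 4.

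**Figure D4:**
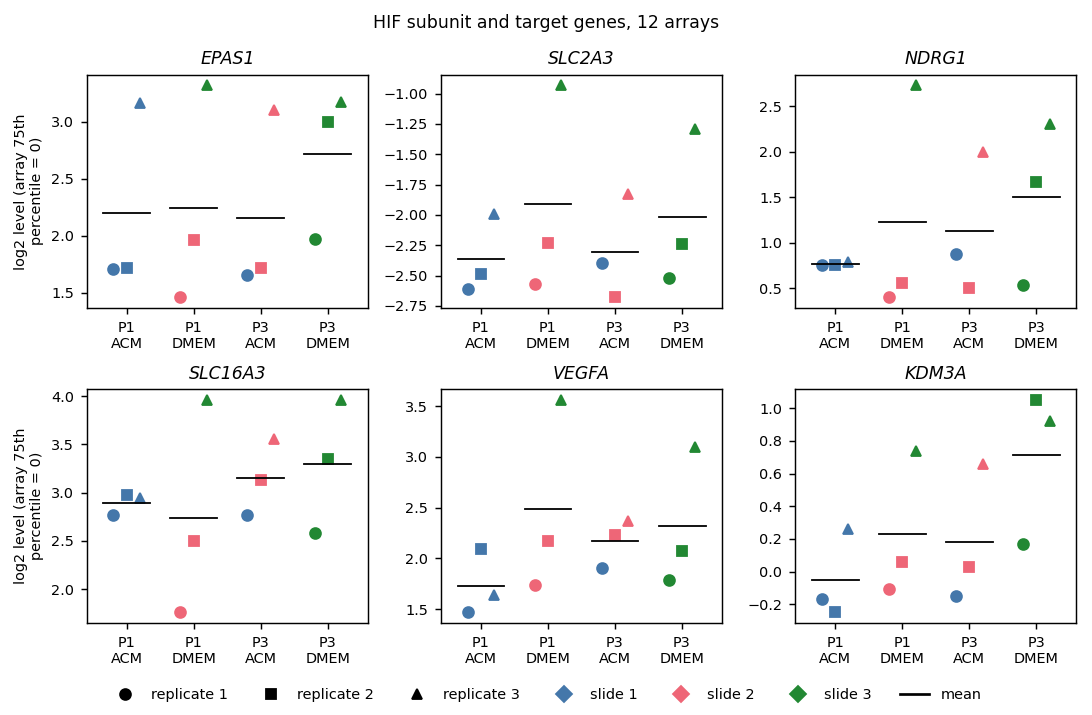
Levels of EPAS1 and 5 HIF targets on the 12 arrays (log2, 75th percentile of the array at 0); shape is the replicate number, colour the slide, and the line the group mean. Triangles (replicate 3) are the highest of EPAS1 and SLC2A3 in all 4 groups, while in P1 ACM they do not stand out for NDRG1, SLC16A3 and VEGFA.

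The replicate contrast rests on the labels of the scanner files. Under the labels of the authors' table EPAS1 differed by less than 0.01 and SLC2A3 by -0.24, and 0 genes had an adjusted p of 0.05 or less, against 244 here (the table gave 1141 higher and 1195 lower at an unadjusted p of 0.05 or less). The count of 244 became 8 with slide as a block, 705 after quantile normalization and 1 to 1305 with 1 array left out. With slide as a block EPAS1 was 1.21 and SLC2A3 0.87 higher, with limma adjusted p of 0.125 and 0.107, and after quantile normalization 1.34 and 0.95 higher, with limma adjusted p of 0.00987 and 0.0128. Leaving out 1 array gave 1.18 to 1.49 for EPAS1 and 0.79 to 1.09 for SLC2A3. The adjusted p of EPAS1 stayed at 0.05 or less without P3 ACM replicate 1 (0.0224), P3 DMEM replicate 2 (0.0136) or P3 DMEM replicate 3 (0.0341) and was 0.0709 to 0.169 without each other array. For SLC2A3 it stayed so without P3 ACM replicate 1 (0.0215) or P3 DMEM replicate 2 (0.0375) and was otherwise 0.0930 to 0.202.

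**Figure D5:**
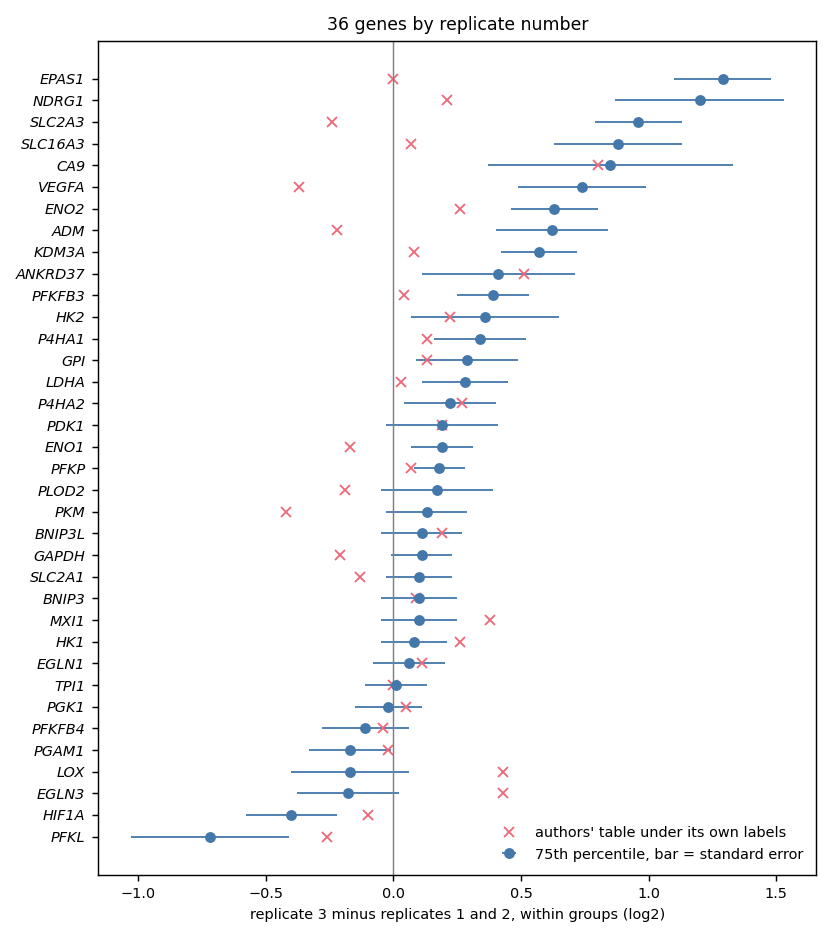
Replicate 3 minus replicates 1 and 2 within groups for 36 genes, on the log2 scale; points with standard errors are limma estimates from the scanner files, crosses the same contrast under the labels of the authors' table. EPAS1, NDRG1 and SLC2A3 lead at 1.29, 1.20 and 0.96, while the crosses of NDRG1 and SLC2A3 lie at 0.21 and -0.24 and that of EPAS1 at 0 to 2 decimals.

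Other genes of the same pathways were counted from lists written for this purpose. Of 9 further HIF pathway genes and 31 other hypoxia targets none (0) passed the thresholds of the study in any of the 5 comparisons. With a limma p of at most 0.05 before adjustment, ACM against DMEM at P1 gave 1 higher and 0 lower of the 9, and 1 higher and 2 lower of the 31 (23.1% of all genes were higher and 0.91% lower). Of 25 other glycolysis and pyruvate genes 9 were higher and 1 lower at that p, and 4 passed the thresholds of the study at P1, all higher in ACM (13.5% of all genes). PDK4, a paralog of PDK1, was 1.30 higher (limma adjusted p = 0.103), 1.15 after quantile normalization and -0.46 under the table's labels. The other 3 were dim: SLC16A7 (at least 2.13-fold) and SLC2A4 (at least 1.88-fold, against the lowest signal well above background) were well above background on 1 of 3 P1 DMEM arrays, and SLC2A2 on 0 of 3, so that no fold is given for it. SLC16A7 and SLC2A2 also passed as lower at P3 than at P1 in ACM (7.48% of all genes), with 1 of 3 P3 ACM arrays well above background for each.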

How the data were processed

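Single-colour Agilent arrays measured RNA of 12 Daoy samples, 3 for each medium and passage. The authors deposited scanner output, in which each spot has an intensity corrected for background by Feature Extraction 11.0.1.1 and not normalized across arrays, and a table with quantile normalized log2 values of 30569 probes. Spots that were controls or outliers were removed and spots of a probe averaged. Each log2 intensity was taken relative to the 75th percentile of its array. A probe was kept if all arrays of any group had it well above background (31073 of 34127 probes). Symbols came from RefSeq accessions (75.5% of probes). One limma 3.58.1 model (R 4.3.3) of 4 group means over 12 arrays gave two-sided contrasts, adjusted by Benjamini-Hochberg over kept probes. It was tested on simulated data with independent noise of equal spread, so slide and replicate effects were outside that test. The number of arrays limits the precision. Named were 11 members chosen by role, members whose p before adjustment was at most 0.05, and listed pathway genes past the thresholds of the study. Members, lists and contrasts were chosen with earlier results of these data known, and the replicate contrast after its values were seen. Deviations of same-numbered samples correlated by 0.43, 0.19 and 0.27 at P1 and 0.23, -0.19 and 0.06 at P3, and every P1 value being over 0.1, same-numbered P1 samples count as pairs by that measure, P3 samples do not. The values printed are from the model without that block, which left every count of members past the thresholds as it was (with it, at P1, GAPDH -0.40, limma adjusted p = 0.176, and PFKFB4 -0.51, limma adjusted p = 0.208). The alternatives were other scalings (normexp on median signals) and filters, the test of the study's methods, the table, slide or replicate as a block, each array left out and other rules for genes with several probes. Slide as a block after quantile normalization, slide with replicate block and replicate block after quantile normalization were added after seeing the data. The sources do not tie arrays to separate cultures, so p-values measure the spread between these arrays.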

Additional observations from a re-analysis of the deposited data

Results flagged for a closer look

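EGLN3, which encodes the prolyl hydroxylase PHD3, met the criterion for a medium effect that differs between passages. The difference was -0.84 on the log2 scale (medium effect 0.46 at P1 and -0.38 at P3), with a limma adjusted p of 0.630, and it was -1.21 with slide as a block and 0.25 under the labels of the authors' table. Leaving out 7 of the 12 arrays one at a time took the p above 0.05 (P1 ACM replicates 1 and 3, P3 ACM replicates 1 and 2, P1 DMEM replicates 2 and 3, P3 DMEM replicate 2), with a difference as small as -0.54. The part of slide in this difference was not tested. No group held enough arrays to test for a single outlying array.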

How the results depend on the processing

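Counts of members past the thresholds of the study were 0 in all 5 comparisons, and stayed 0 under most alternatives. Slide as a block, with or without quantile normalization, gave 4 at P3, 2 for passage in DMEM and 2 for the difference of the medium effects. Slide as a random block gave 1 for that difference. Slide and replicate as blocks together gave 1 at P3, 1 for passage in DMEM and 2 for the difference. The table under its own labels gave 1 at P1, 2 at P3, 1 for passage in ACM and 2 for the difference. Leaving out 1 array gave 0 to 1 at P1, 0 to 2 at P3, 0 to 3 for passage in DMEM, 0 for passage in ACM and 0 to 1 for the difference. Beside those named above these were PFKL (1.29) and HK2 (2.0-fold lower) at P3 without P3 ACM replicate 3, ANKRD37 (-1.07) at P3 without P3 DMEM replicate 1, and for the difference CA9 (-2.10) without P1 DMEM replicate 3 and EGLN3 (-1.03) without P3 DMEM replicate 3. The replicate block alone left all 5 counts at 0, and the test named in the study's methods left the 4 counts of medium and passage at 0. The causes were not tested.

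The gap between glycolytic enzymes and other HIF targets (main values -0.16 at P1, -0.13 at P3, -0.08 for passage in DMEM, 0.01 for passage in ACM) moved by more than the SD between arrays under the table (0.44 at P1, -0.41 in ACM), slide as a block (-0.56 at P3, 0.22 in DMEM, -0.29 in ACM), slide as a random block (-0.49 at P3), slide as a block after quantile normalization (-0.47 at P3, -0.29 in ACM) and slide with replicate block (0.12 at P1, -0.39 at P3, 0.34 in DMEM, -0.33 in ACM). With 1 array left out it was -0.36 to 0.01 at P1, -0.49 to 0.11 at P3, -0.29 to -0.04 in DMEM and -0.09 to 0.11 in ACM, the -0.49 being without P3 DMEM replicate 3.

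Signs turned under the table for GAPDH (0.20 at P1, 0.02 at P3), PFKFB4 (0.11 at P1), PGK1 (0.24), ENO1 (0.01) and LDHA (0.46) at P3, GPI in DMEM (-0.10), the EGLN3 interaction (0.25) and the replicate contrast of EPAS1 (-0.0047) and SLC2A3 (-0.24). They also turned for GAPDH at P1 with slide as a block (0.00066, and 0.02 after quantile normalization), PFKFB4 with slide and replicate blocks (0.12), GAPDH at P3 after quantile normalization (0.0021, also with the replicate block, and 0.0038 with the slide block) and LDHA with slide as a block after quantile normalization (0.10). Unadjusted p passed 0.05 on leaving out 7 of 12 arrays for GAPDH at either passage, 4 for PFKFB4, PGK1 and LDHA, 3 for ENO1 and GPI, and 0 for EGLN3 in DMEM. The low share of probes well above background on slide 2 limits what can be said of dim genes.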
